A study of Mus musculus with 32 samples.

Results

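NF-kB is a family of dimeric transcription factors that B cells use to answer signals from their antigen receptor and from receptors of the tumour necrosis factor family. The 10 genes of this system followed here were the subunit genes Nfkb1, Nfkb2, Rel and Relb, the inhibitor genes Nfkbia, Nfkbie and Tnfaip3, and the target and signalling genes Birc3, Traf1 and Cd40. They were picked by name, with no expression value in the rule, although earlier results of these data were known. Of the 10 genes, 9 had a probe set annotated to a single gene symbol, out of 19938 genes with such a probe set, and each of the 9 had exactly 1. Nfkb1 had none and was not analysed here.

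In resting cells NF-kB dimers are held in the cytoplasm by IkB proteins, and a kinase complex marks these for destruction when a receptor is engaged. In the alternative pathway, opened by receptors such as CD40, the Nfkb2 product p100 is trimmed so that it can pair with RelB. Many inhibitors of the system, among them Nfkbia, Nfkbie and Tnfaip3, are themselves NF-kB targets, so their RNA is often read as a trace of NF-kB activity in lymphoma. RNA does not report how much of a subunit is in the nucleus.

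The study profiled BAL17, a BALB/c mouse B cell lymphoma line, its derived line BAL17VII, and whole brains of BALB/c wild-type mice. The 32 arrays were 6 of BAL17VII cells, 6 of BAL17 cells, 5 of brains 21 days after implantation of 500000 BAL17 cells, 5 of brains 21 days after BAL17VII, 5 of brains 28 days after BAL17, and 5 of brains of mice injected with PBS and taken at day 28. No array of PBS brains at day 21 or of BAL17VII brains at day 28 was analysed here, so day 21 brains are compared with PBS brains of day 28. The labels do not say whether arrays of a group came from separate cultures or animals, so p-values measure the spread between these arrays, which may in part be technical. The sample descriptions number the line arrays and the brain arrays in separate runs, so that array set and culture against brain cannot be told apart. Whole brains hold tumour and host cells together, and fewer cells of a type and less RNA per cell cannot be told apart.

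Array medians lay between 81.7 and 93.0 intensity units, and arrays of a group correlated with each other at 0.974 or more. Both lines carried the B lineage markers Cd79b (10.56 ± 0.15 and 10.12 ± 0.05 on the log2 scale in BAL17VII and BAL17 cells, mean ± SD, n = 6 each) and Pax5 (10.44 ± 0.07 and 10.12 ± 0.09). Ms4a1, which encodes CD20 and was named after its values were seen, was at 5.30 and 5.31 in the lines, near its 4.95 in PBS brains, and at 7.26, 6.16 and 7.97 in BAL17 day 21, BAL17VII day 21 and BAL17 day 28 brains. The mean of 14 B lineage genes was 7.34 ± 0.19, 6.77 ± 0.50 and 7.48 ± 0.13 in these 3 groups, and 5.996 ± 0.10 in PBS brains (SD, n = 5 each). One brain stood apart: replicate 1 of BAL17VII day 21 had a B lineage mean of 5.94, inside the PBS range of 5.83 to 6.08, and a mean over 11 mitosis genes of 5.54, against 7.21 to 7.82 in the other BAL17VII brains and 5.38 to 5.56 in PBS brains. Calls of NF-kB genes that rest on this brain are given with and without it. The lists of further pathway genes and of cell type markers were not recomputed without it.

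The promoters are shown because the NF-kB binding sequence is well known. RefSeq promoter windows of GRCm38.p6 were found for 7 of the 10 genes, 10 windows in all. They are from the reference assembly, not from the BALB/c genome. Both strands of the 250 bases before each start were searched for the 10-letter kB consensus and for the 9-letter GGANTTTCC, which can overlap each other. These motifs were chosen after the sequences had been viewed. The stretches below hold 180 bases each, 5′ to 3′ on the strand of the gene, with motif matches in capitals.
Nfkb2, chr19:46304557-46304736, plus strand: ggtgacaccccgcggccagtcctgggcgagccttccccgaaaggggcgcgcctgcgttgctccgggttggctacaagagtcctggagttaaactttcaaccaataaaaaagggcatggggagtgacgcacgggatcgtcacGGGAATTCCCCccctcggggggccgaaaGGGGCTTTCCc
Rel, chr11:23770970-23771149, minus strand: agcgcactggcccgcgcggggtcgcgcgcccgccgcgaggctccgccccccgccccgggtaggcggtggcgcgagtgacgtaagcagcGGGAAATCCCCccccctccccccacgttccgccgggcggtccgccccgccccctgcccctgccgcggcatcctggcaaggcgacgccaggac
Nfkbia, chr12:55492657-55492836, minus strand: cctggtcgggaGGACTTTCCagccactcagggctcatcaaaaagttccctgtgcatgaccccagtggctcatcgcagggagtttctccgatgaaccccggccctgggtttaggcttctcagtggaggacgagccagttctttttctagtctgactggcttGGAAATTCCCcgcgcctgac
Nfkbie, chr17:45555509-45555688, plus strand: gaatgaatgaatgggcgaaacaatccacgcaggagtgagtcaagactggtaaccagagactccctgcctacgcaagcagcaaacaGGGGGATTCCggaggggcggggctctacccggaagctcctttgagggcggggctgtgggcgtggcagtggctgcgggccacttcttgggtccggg
Tnfaip3, chr10:19015411-19015590, minus strand: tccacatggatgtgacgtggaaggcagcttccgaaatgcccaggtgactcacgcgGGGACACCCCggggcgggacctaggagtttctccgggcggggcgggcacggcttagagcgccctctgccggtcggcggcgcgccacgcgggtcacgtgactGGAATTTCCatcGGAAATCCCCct
Birc3, chr9:7873171-7873350, minus strand: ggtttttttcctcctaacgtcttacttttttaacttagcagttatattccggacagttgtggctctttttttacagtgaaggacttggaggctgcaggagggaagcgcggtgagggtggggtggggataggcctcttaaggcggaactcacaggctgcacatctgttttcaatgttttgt
The kB consensus occurred before at least 1 start of 5 of the 7 genes, against 8.23% of all 27025 genes with a window, and GGANTTTCC before a start of 3 of the 7, against 1.25%. In Nfkb2, which has 3 windows, the match nearest to the printed start ended 2 bases before it, and a second group of overlapping matches lay 39 to 29 bases before it. In Nfkbia, the IkBα gene, a match lay 178 to 170 bases before the start and an overlapping pair 29 to 20 bases before it. Tnfaip3, which encodes the deubiquitinating enzyme A20, had 3 separate matched stretches, the nearest 12 to 3 bases before the start. The windows of Birc3 and Traf1 held no match. A match describes letters in this window and does not show binding, and no match says nothing of sites elsewhere.

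Across the 6 groups, all genes but Traf1 had their highest mean in the cultured lines. The Traf1 mean was highest in PBS brains (5.66), against 5.62 and 5.58 in BAL17VII and BAL17 cells. Birc3, which encodes the cIAP2 ubiquitin ligase, spanned the widest range of group means, 3.55 log2 units between BAL17VII cells and PBS brains, followed by Rel at 2.69, Cd40 at 1.82, Nfkb2 at 1.78, Tnfaip3 at 1.65, Nfkbie at 1.12, Relb at 1.09 and Nfkbia at 0.96. Traf1, an adaptor of tumour necrosis factor receptors, spanned 0.24 units, lay below the array median on all 32 arrays, and its neighbouring groups all overlapped. For 7 of the 9 genes every line array lay above every brain, against 18.5% of all genes, with Nfkbia and Traf1 as the exceptions. BAL17VII cells had the highest mean for 8 of the 9 genes, and PBS brains the lowest for 7.

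**Figure D1:**
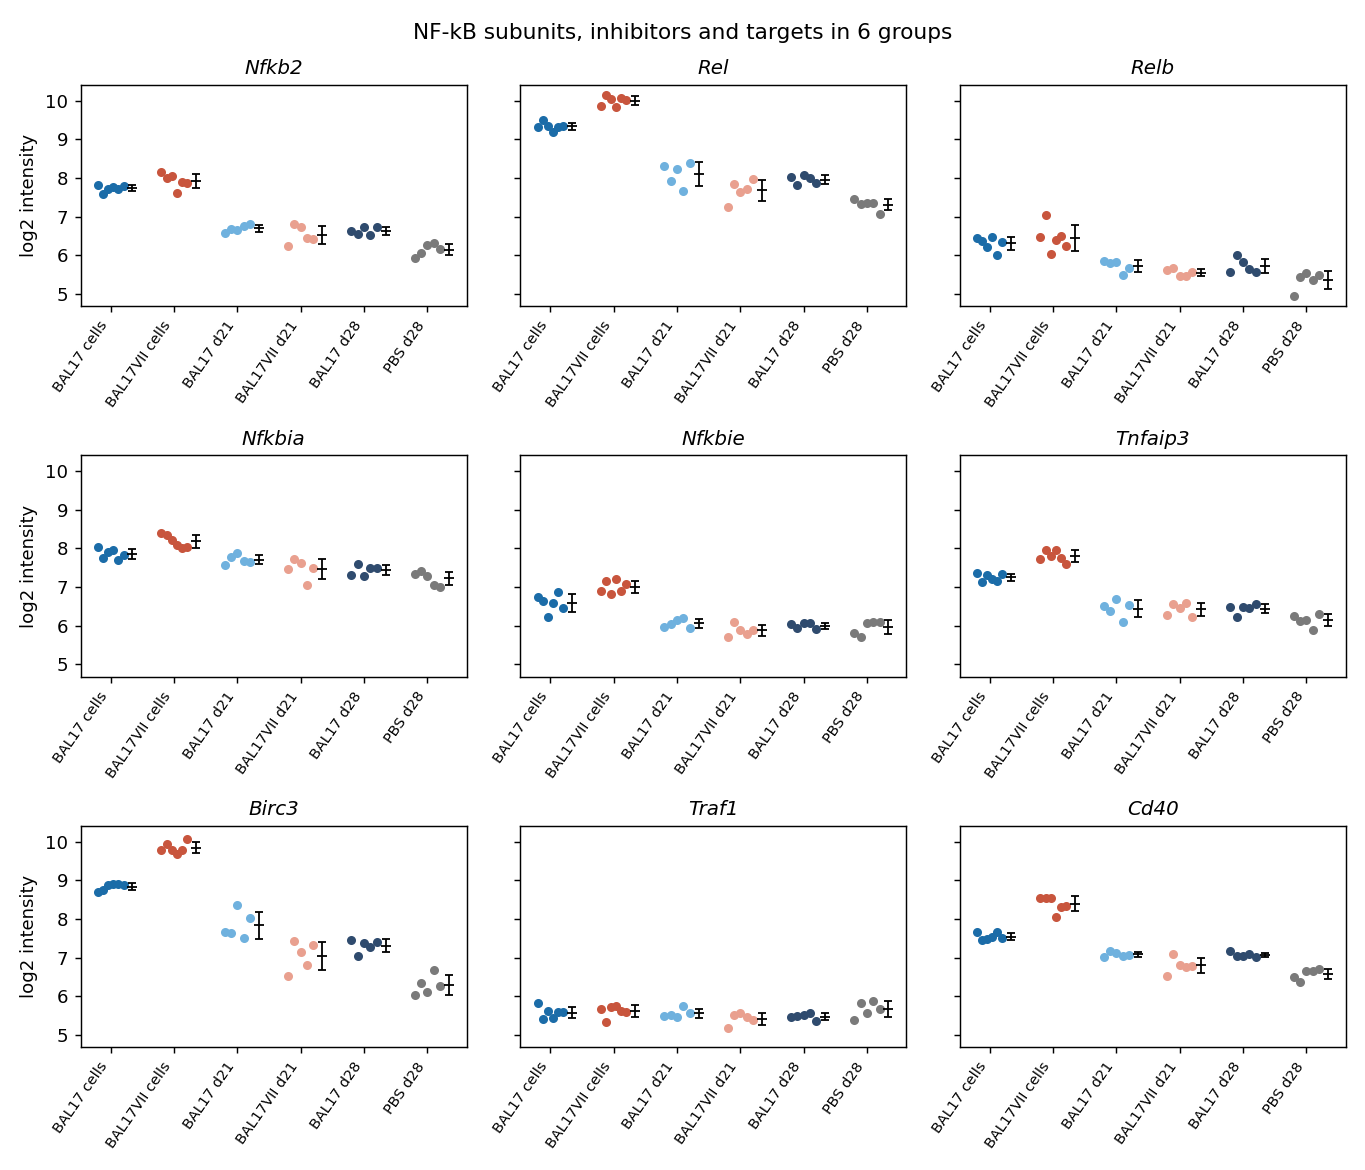
Log2 intensity of 9 NF-kB genes on each of 32 arrays (points), by group, with the group mean and SD (black). Birc3 falls from 9.84 in BAL17VII cells to 6.29 in PBS brains, whereas Traf1 stays between group means of 5.42 and 5.66.

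The first comparison set the derived line against its parent in culture. BAL17VII cells had more RNA of 6 of the 7 genes that could be tested, by 1.25-fold to 2.01-fold. Genes had to exceed the array median on at least 6 of the 12 line arrays to enter the test, which Relb and Traf1 did not. The threshold for a call was 0.05 on limma's p-value, adjusted by Benjamini-Hochberg over all 10717 genes of the fit. Of these, 31.9% were called, 17.3% as higher in BAL17VII cells, and the median difference over all of them was 0.00, against 0.55 over the 7 NF-kB genes.

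Among the subunits, Rel, the c-Rel gene typical of lymphoid cells, was at 9.18, 9.33 and 9.48 in BAL17 cells and at 9.84, 10.04 and 10.14 in BAL17VII cells (lowest, median and highest of 6). The lines did not overlap, and the difference was 0.67 ± 0.07 log2 units (SE; 1.59-fold; limma adjusted p = 9.26e-07). Nfkb2 ranged from 7.60 to 7.82, with a median of 7.74, in BAL17 cells and from 7.62 to 8.14, with a median of 7.95, in BAL17VII cells. It overlapped, and its difference of 0.20 ± 0.08 was not called (limma adjusted p = 0.0624; 0.04 to 0.35 at 2 SE either way). Without BAL17VII cell replicate 4 it was called (0.26, limma adjusted p = 0.00637). Rela, the p65 gene, was also higher in BAL17VII cells, by 0.27 ± 0.07 (limma adjusted p = 0.00751).

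Of the inhibitors, Tnfaip3 was at 7.13, 7.27 and 7.36 in BAL17 cells and at 7.60, 7.77 and 7.97 in BAL17VII cells. These ranges were apart, with a difference of 0.55 ± 0.07 (limma adjusted p = 1.63e-05). Nfkbie, which encodes IkBε, was at 6.23, 6.62 and 6.88 in BAL17 cells and at 6.82, 6.99 and 7.20 in BAL17VII cells. Nfkbia was at 7.70, 7.86 and 8.04 in BAL17 cells and at 8.02, 8.15 and 8.41 in BAL17VII cells. Both overlapped narrowly and both were called, at 0.42 ± 0.10 (limma adjusted p = 0.00385) for Nfkbie and 0.32 ± 0.08 (0.00555) for Nfkbia.

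Birc3 and Cd40 differed most among the genes tested. Birc3 was at 8.69, 8.88 and 8.90 in BAL17 cells and at 9.68, 9.78 and 10.07 in BAL17VII cells, a difference of 1.01 ± 0.07 (2.01-fold; limma adjusted p = 8.94e-09). Cd40, the receptor for the T cell ligand CD154, was at 7.44, 7.51 and 7.67 in BAL17 cells and at 8.06, 8.44 and 8.55 in BAL17VII cells, a difference of 0.85 ± 0.08 (1.80-fold; 6.39e-07). Both were apart between the lines. In all, 4 of the 7 genes were higher with no overlap, against 10.3% of all genes. With no filter 6 of the 9 genes were called, against 15.4% of all genes. Relb, at 6.01, 6.36 and 6.46 in BAL17 cells and at 6.02, 6.43 and 7.03 in BAL17VII cells, then differed by 0.13 ± 0.14 and Traf1 by 0.04 ± 0.09, neither of them called.

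The rest of the pathway, a list of 89 further genes of which 56 were tested, had 28 higher and 1 lower in BAL17VII cells. These were 51.8% of the 56, against 31.9% of all genes called and 17.3% called higher. The list was chosen with earlier results of these data known, so its shares here and below are a description. The 4 other IkB proteins were all higher, led by Bcl3 (0.57 ± 0.09) and Nfkbid (0.49 ± 0.09). Prkcb, a protein kinase C gene, was higher by 1.24 ± 0.08, and the paracaspase gene Malt1 by 0.40 ± 0.06. The adaptor gene Myd88 was higher by 0.69 ± 0.07. Of the 14 other targets tested, 9 were called higher, among them the chemokine gene Ccl5 (2.62 ± 0.07), Plek (2.75 ± 0.08) and the costimulatory gene Cd80 (1.63 ± 0.07). The ligand genes went opposite ways, with Il1b higher by 2.05 ± 0.10 and Ltb, the lymphotoxin beta gene, lower (−0.27 ± 0.07). Beside these differences, the B lineage mean was close in the lines (8.60 and 8.57 in BAL17VII and BAL17 cells). Single B lineage genes moved both ways: of 11 in the fit, limma put 4 up and 3 down in BAL17VII cells. The mitosis mean was 9.98 and 10.19, with 1 gene of 11 up and 7 down in BAL17VII cells. The mean of 12 monocyte and macrophage genes was 6.45 (6.41 to 6.53) and 5.93 (5.86 to 6.02). Of that list, 3 of 3 genes tested were higher in BAL17VII cells, Adgre1 stood at 6.41 and 5.12, and Lyz2 lay at 5.23 and 5.43, below the array medians. The part of these in the results was not tested.

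The next comparisons asked how the genes stood in implanted brains against PBS brains. They share the same 5 PBS arrays, so their likeness to each other is not an independent result. In BAL17 brains at day 21 all 6 genes tested were higher, by 1.22-fold to 2.91-fold, against 45.1% of 11965 genes called and 13.1% called higher. The filter of the brain fit, above the array median on at least 5 of 20 arrays, kept Nfkb2, Rel, Nfkbia, Tnfaip3, Birc3 and Cd40. Of these, Rel, Nfkbia and Cd40 lay above the median in every brain, whereas Nfkb2 and Tnfaip3 did so on none of the 5 PBS arrays and Birc3 on 1, so that these 3 passed through the implanted brains and their calls are no independent count. With no filter, 7 of the 9 genes were higher at day 21, against 2192 of all 19938 genes called higher and 29.8% called in either direction. The seventh was Relb, the partner of the Nfkb2 product (0.37 ± 0.11, limma adjusted p = 0.011 in that fit).

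Birc3 was at 7.67, 7.62, 8.35, 7.50 and 8.01 in the 5 BAL17 day 21 brains and at 6.03, 6.35, 6.11, 6.69 and 6.26 in the 5 PBS brains. All day 21 values lay above all PBS values, and the difference was 1.54 ± 0.17 (2.91-fold; limma adjusted p = 5.79e-07). Rel was at 8.32, 7.91, 8.22, 7.65 and 8.40 at day 21 and at 7.45, 7.32, 7.34, 7.34 and 7.06 in PBS brains. It was apart as well, by 0.80 ± 0.13 (1.74-fold; limma adjusted p = 7.02e-05). Cd40 was at 7.01, 7.18, 7.12, 7.03 and 7.06 at day 21 and at 6.50, 6.37, 6.64, 6.65 and 6.70 in PBS brains, 0.51 ± 0.09 higher and apart (8.43e-05 in limma).

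Nfkb2 was at 6.58, 6.69, 6.66, 6.75 and 6.80 at day 21 against 5.94, 6.06, 6.27, 6.32 and 6.16 in PBS brains, a difference of 0.55 ± 0.10 with no overlap. Nfkbia was at 7.58, 7.78, 7.88, 7.67 and 7.66 against 7.33, 7.42, 7.30, 7.06 and 7.01, a difference of 0.49 ± 0.11 with no overlap. Tnfaip3 was at 6.51, 6.38, 6.68, 6.10 and 6.54 against 6.26, 6.13, 6.15, 5.90 and 6.32. Its groups overlapped, and its difference of 0.29 ± 0.11 (limma adjusted p = 0.0298) was not called after quantile normalization (0.21, adjusted p = 0.142) or after median centring (0.27, adjusted p = 0.0523). That call was also lost without replicate 1, 3 or 5 of the day 21 brains (0.27, 0.23 and 0.27; limma adjusted p = 0.0635, 0.0898 and 0.0684) and without PBS replicate 2 or 4 (0.28 and 0.23; 0.0531 and 0.0891). In all, 5 of the 6 genes had no overlap, against 8.52% of all genes apart and higher. Nfkbie and Traf1 did not pass the filter, and with no filter their differences of 0.11 ± 0.09 and −0.11 ± 0.10 were not called.

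At day 28, 5 of the 6 genes were higher in BAL17 than in PBS brains, against 30.5% of genes called and 8.87% called higher. Nfkb2, Tnfaip3 and Birc3 passed the filter through the implanted brains here as well, so the count is a description. Birc3 was at 7.44, 7.04, 7.38, 7.28 and 7.41, higher than in PBS brains by 1.02 ± 0.17 (2.03-fold; limma adjusted p = 0.000144). Rel was at 8.02, 7.81, 8.08, 7.99 and 7.86, higher by 0.65 ± 0.13. Cd40 was at 7.16, 7.04, 7.05, 7.10 and 7.02, higher by 0.50 ± 0.09, and Nfkb2 at 6.63, 6.54, 6.72, 6.52 and 6.72, higher by 0.48 ± 0.10. These 4 were apart from PBS brains, against 7.17% of all genes apart and higher. Tnfaip3 was higher by 0.29 ± 0.11 (limma adjusted p = 0.0395), a call lost after quantile normalization (0.24, adjusted p = 0.123), after median centring (0.29, adjusted p = 0.0531) and with no filter (adjusted p = 0.0577). It was lost as well without replicate 1, 3, 4 or 5 of the day 28 brains (0.26 to 0.29; limma adjusted p = 0.0652 to 0.0917) and without PBS replicate 2, 3 or 4 (0.23 to 0.29; 0.0592 to 0.105). Nfkbia, at 7.31, 7.59, 7.29, 7.48 and 7.50, overlapped the PBS range and was not called (0.21 ± 0.11; −0.01 to 0.43 at 2 SE either way). With no filter 5 of the 9 genes were called, against 18% of all genes, Relb among them (0.37 ± 0.11, limma adjusted p = 0.0206).

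BAL17VII brains at day 21 gave 2 calls among the 6 genes, against 5.01% of genes called and 3.37% called higher. The 2 were Birc3 and Nfkb2, which passed the filter through the implanted brains, so this count is a description. Of Rel, Nfkbia and Cd40, above the array median in every brain, none was called. Birc3 was at 6.51, 7.42, 7.14, 6.82 and 7.32, higher than in PBS brains by 0.75 ± 0.17 (1.69-fold; limma adjusted p = 0.0103). Nfkb2 was at 6.25, 6.80, 6.73, 6.45 and 6.43, higher by 0.38 ± 0.10 (adjusted p = 0.0228). Neither was free of overlap, which 1.92% of all genes were in this direction: both met the PBS range at replicate 1, the brain with B lineage and mitosis means inside the PBS ranges. Rel in that brain was 7.24 and Cd40 6.54, also inside the PBS ranges, whereas Nfkbia, at 7.46, lay just above its PBS range of 7.01 to 7.42. Without it 4 genes were called, with Birc3 at 0.89 ± 0.16, Nfkb2 at 0.45 ± 0.09, Rel at 0.48 ± 0.12 and Cd40 at 0.29 ± 0.08, while without replicate 2 none was called by limma, 4 were at an unadjusted p under 0.05, Birc3 was at 0.66 ± 0.17 (adjusted p = 0.0503) and Nfkb2 at 0.31 (0.0918). The Nfkb2 call was also lost without replicate 3 (0.33, limma adjusted p = 0.0877) or PBS replicate 1 (0.33, 0.0696), and Nfkbia was called without replicate 4 (0.35, 0.0223). With all 5 brains, Rel (0.37 ± 0.13), Tnfaip3 (0.27 ± 0.11), Nfkbia (0.25 ± 0.11) and Cd40 (0.22 ± 0.09) were not called, with limma adjusted p from 0.103 to 0.188.

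**Figure D2:**
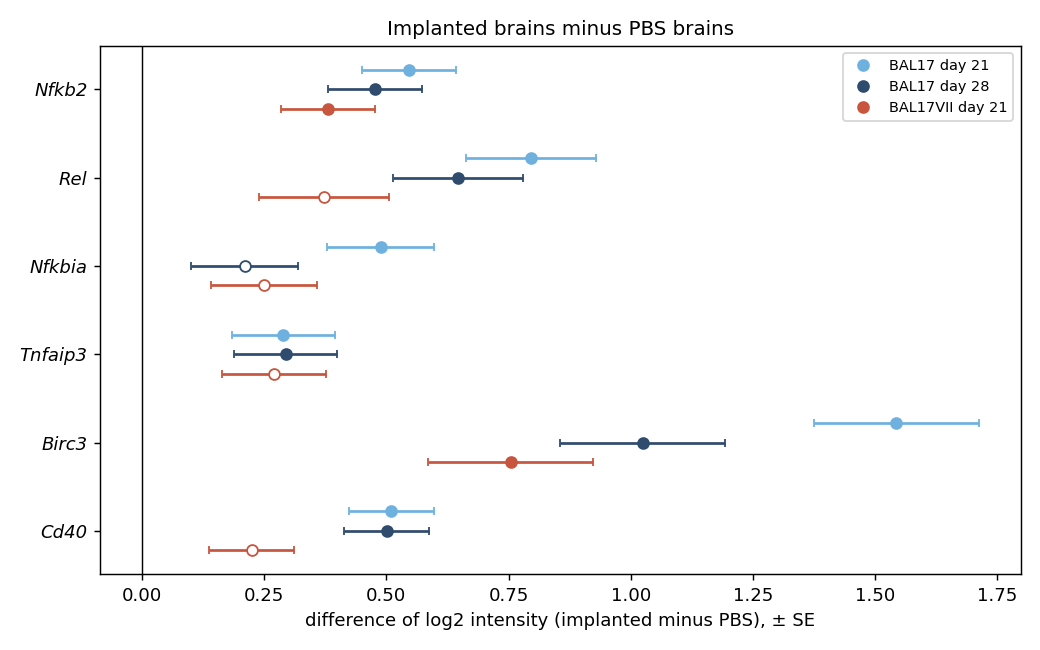
Difference of log2 intensity between implanted and PBS brains (points, with SE bars) for the 6 genes tested, 5 arrays a group. Filled points were called by limma and open points were not; Birc3 stood highest in all 3 comparisons, at 1.54, 1.02 and 0.75.

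Of the 48 further pathway genes tested in brains, 13 were higher and 7 lower in BAL17 day 21 than in PBS brains, 41.7% in all against 45.1% of all genes. By direction, 1572 of all 11965 genes were higher (13.1%) and 3826 lower. Ltb was higher by 0.82 ± 0.10, Malt1 by 0.80 ± 0.16, the BAFF receptor gene Tnfrsf13c by 0.73 ± 0.11, the linear ubiquitin protease gene Otulin by 0.57 ± 0.09 and Bcl3 by 0.50 ± 0.13. Prkcb was lower (−0.41 ± 0.10). At day 28, 8 pathway genes were higher and 4 lower, 25% in all against 30.5% of all genes, with Ltb (0.85 ± 0.10), Malt1 (0.74 ± 0.16) and Tnfrsf13c (0.64 ± 0.11) again called. Of all genes, 1061 were then higher (8.87%) and 2583 lower. In BAL17VII brains limma called none of the 48, against 5.01% of all genes. At an unadjusted p under 0.05 in limma were 10 of the 48, and 2517 of all 11965 genes. Rela was not called in any of the 3 groups, with means of 7.66, 7.55 and 7.63 against 7.49 in PBS brains.

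Markers of several cell types moved with these differences. Of 11 B lineage genes tested, 10 were higher and 1 lower at day 21 in BAL17 brains, 10 were higher at day 28, and 8 were higher in BAL17VII brains. All 11 mitosis genes tested were higher in BAL17 brains at day 21 and at day 28, and 10 in BAL17VII brains. Among 3 T and NK cell genes tested, 2 were higher in BAL17 brains at day 21, 1 at day 28 and 1 in BAL17VII brains. Of 7 monocyte and macrophage genes tested, 5 were higher and 1 lower in BAL17 brains at day 21, 4 were higher at day 28, and 2 were higher in BAL17VII brains. The mean of that list was 6.50 (6.28 to 6.63), 6.40 (5.998 to 6.69) and 6.58 (6.30 to 6.89) in BAL17 day 21, BAL17VII day 21 and BAL17 day 28 brains against 6.003 (5.84 to 6.17) in PBS brains. Lyz2, a macrophage lysozyme gene, was at 9.01, 8.73 and 9.29 against 7.44, and at 5.23 and 5.43 in the lines, whereas Adgre1, the F4/80 gene, was at 5.88, 6.37 and 6.21 against 6.20. The microglia mean was 6.65, 7.20 and 6.94 against 7.17, and the neuron mean 10.38, 10.69 and 10.56 against 10.82. The part of the host cell lists in the results was not tested. With the B lineage mean of each brain as a covariate, none of the 6 genes was called by limma in any implanted group against PBS brains, with 0 at an unadjusted p under 0.05, and over all genes only 4, 0 and 0 calls were left for BAL17 day 21, BAL17VII day 21 and BAL17 day 28, with 1266, 928 and 463 genes at an unadjusted p under 0.05. The SE of the Birc3 difference at day 21 was then 0.25 in place of 0.17, and the difference was 0.46. The B lineage mean of every implanted brain but replicate 1 of BAL17VII lay above that of every PBS brain. In that fit Nfkb2, Birc3 and Cd40 at day 28 and Cd40 in BAL17VII brains had the opposite sign, none of them called by limma.

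**Figure D3:**
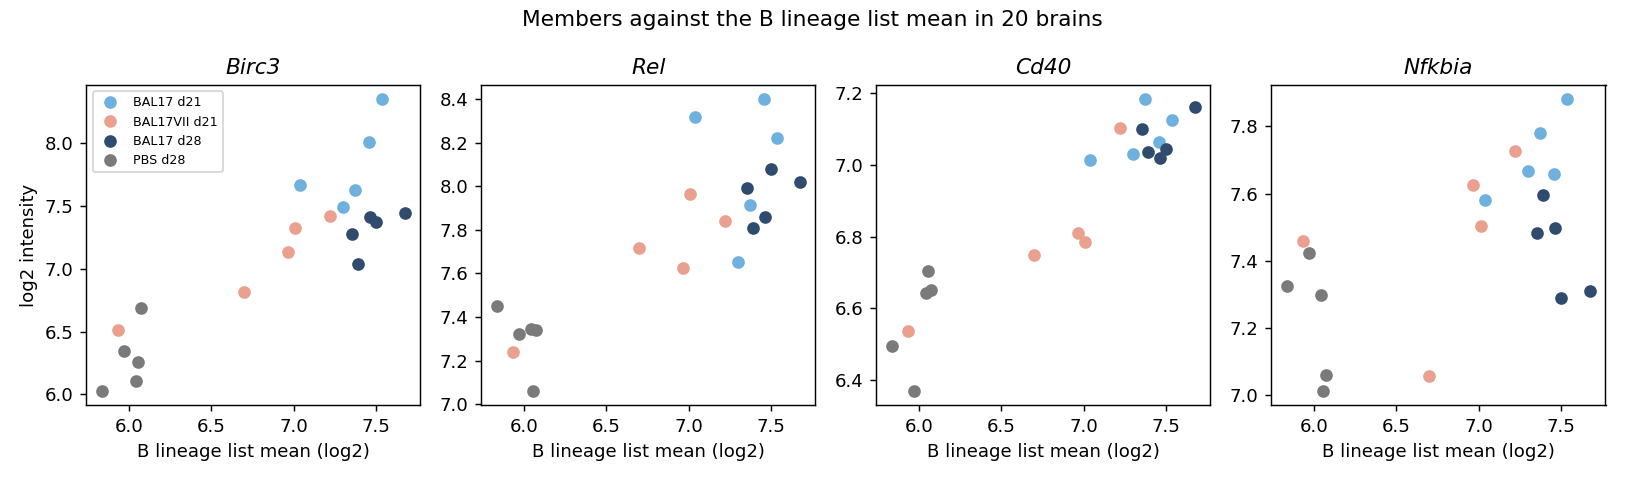
Log2 intensity of Birc3, Rel, Cd40 and Nfkbia on the 20 brain arrays (points, coloured by group) against the mean log2 intensity of 14 B lineage genes on the same array. The BAL17VII brain at a B lineage mean of 5.94 lies among the PBS brains for Birc3 (6.51), Rel (7.24) and Cd40 (6.54). For Nfkbia (7.46) it lies just above the PBS range of 7.01 to 7.42.

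The lines were then compared within the brain, at day 21. The order of culture was turned: BAL17VII brains had less Birc3, Rel and Cd40 RNA than BAL17 brains. These were 3 of 6 genes tested, against 24.1% of genes called and 6.82% called lower. Birc3, at 6.51 to 7.42 against 7.50 to 8.35, was apart (−0.79 ± 0.17; limma adjusted p = 0.00247), as were 3.59% of all genes in that direction. Rel, at 7.24 to 7.96 against 7.65 to 8.40, overlapped (−0.42 ± 0.13; 0.0247), and so did Cd40, at 6.54 to 7.10 against 7.01 to 7.18 (−0.29 ± 0.09; 0.0208).

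Without replicate 1 of the BAL17VII brains, 1 of the 3 calls was left, that of Birc3 (−0.66 ± 0.16; limma adjusted p = 0.00866), with Rel at −0.31 ± 0.12 and Cd40 at −0.22 ± 0.08. The Rel call was also lost without replicate 1, 3 or 5 of the BAL17 day 21 brains (−0.37, −0.39 and −0.35; limma adjusted p = 0.0705, 0.053 and 0.0811), and Nfkbia was called without BAL17VII replicate 2 (−0.30, 0.0441). Nfkbia (−0.24 ± 0.11), Nfkb2 (−0.17 ± 0.10) and Tnfaip3 (−0.02 ± 0.11) were not called with all brains. With no filter the calls were again 3 of the 9 genes, against 13.5% of all genes, and Relb (−0.18 ± 0.11), Nfkbie (−0.18 ± 0.09) and Traf1 (−0.13 ± 0.10) were not among them. The B lineage list was lower in the same direction, with 8 of 11 genes called lower, and the mitosis list with 8 of 11. With the B lineage mean as a covariate limma called no NF-kB gene, against 305 of all genes, and Birc3 was at −0.32 ± 0.15 (adjusted p = 0.274). At an unadjusted p under 0.05 in that limma fit were 1 NF-kB gene and 2094 of all 11965 genes. Of 48 further pathway genes, 3 were higher and 9 lower, 25% in all, beside 24.1% of all genes called in either direction. By direction, limma put 2069 of all 11965 genes higher and 816 lower (6.82%). Ltb (−0.76 ± 0.10), Malt1 (−0.61 ± 0.16) and Tnfrsf13b (−0.39 ± 0.08) were among the pathway genes called lower. Counts of the B lineage, mitosis and pathway lists were not recomputed without replicate 1 of the BAL17VII brains.

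The difference between the lines was itself compared between brain and culture, in a fit of all 32 arrays. All 7 genes tested had a lower BAL17VII-to-BAL17 difference in brain than in culture, against 25.2% of 13166 genes called and 10.9% called lower. All 7 also had a higher mean in BAL17VII cells, so a line difference that is merely smaller in brain gives a negative value. Tnfaip3, for example, differed by 0.55 in culture and by −0.02 in brain. The shares cover all genes, whichever line was higher in culture, so the count is a description. The change was −1.79 ± 0.20 for Birc3 (limma adjusted p = 2.16e-08), −1.13 ± 0.12 for Cd40 (1.67e-08) and −1.09 ± 0.16 for Rel (3.96e-06). Nfkbie (−0.60 ± 0.14), Tnfaip3 (−0.57 ± 0.13) and Nfkbia (−0.56 ± 0.14) followed, and Nfkb2 was at −0.36 ± 0.13 (adjusted p = 0.0332). Nfkbie was below the array median on all 20 brains and passed the filter through the line arrays. With no filter 6 of the 9 genes were called, against 15.6% of all genes, and Nfkb2 (limma adjusted p = 0.051), Relb (−0.31 ± 0.18) and Traf1 (−0.17 ± 0.13) were not. The Nfkb2 call was lost under 11 of 40 alternatives, among them quantile normalization (adjusted p = 0.0645). It was lost without replicate 1, 4 or 5 of the BAL17VII brains, 4 or 5 of the BAL17 day 21 brains, 1 or 3 of the BAL17VII cells or 2 of the BAL17 cells (−0.35 to −0.29; limma adjusted p = 0.0545 to 0.0894), whereas the other 6 calls were not lost under any alternative that tested them. All 9 genes had a higher mean in BAL17VII than in BAL17 cells and a lower mean in BAL17VII than in BAL17 day 21 brains, as did 23.5% of all genes. For Tnfaip3 this rested on replicate 1 of the BAL17VII brains, as its brain difference was 0.02 without it. It was also 0.02 after quantile normalization, and its sign changed under 6 of 30 alternatives. The sign of the Nfkb2 brain difference changed under 1 of 30, the B lineage covariate (0.06).

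**Figure D4:**
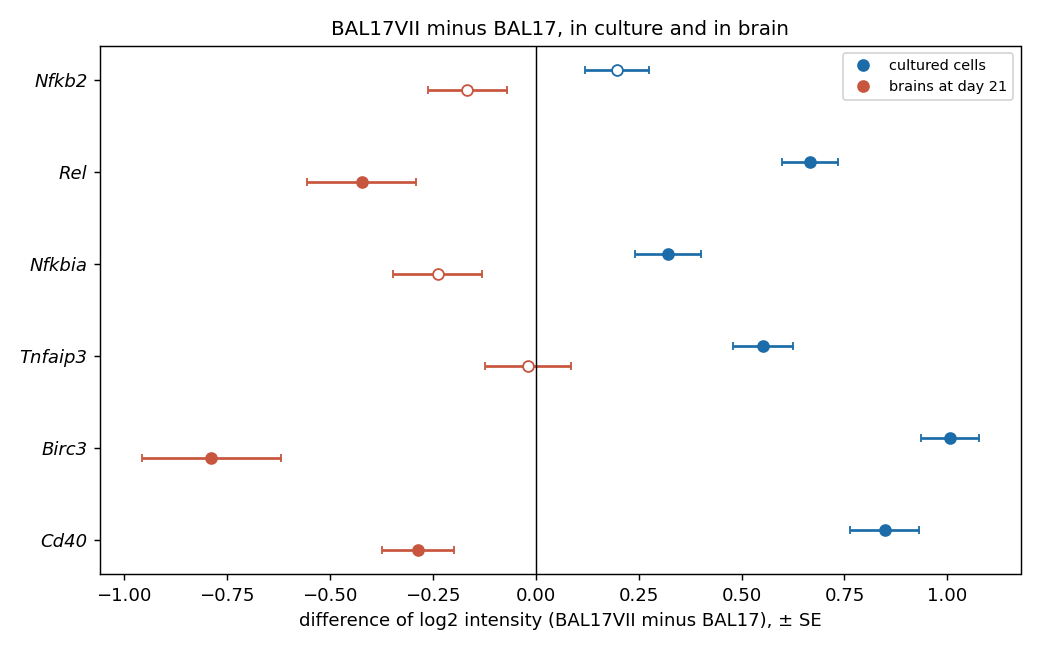
Difference of log2 intensity between BAL17VII and BAL17 (points, with SE bars) in cultured cells (6 arrays a line) and in brains at day 21 (5 arrays a line), for the 6 genes tested in both. Filled points were called by limma and open points were not. Culture lies right of 0 and brain left of it for each gene, with Tnfaip3 in brain at −0.02. Tnfaip3 in brain was at 0.02 after quantile normalization or without replicate 1 of the BAL17VII brains.

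Of the pathway list, 32 of 59 further genes were called lower in this comparison of differences and 2 higher. These were 57.6% of the 59, against 25.2% of all genes called and 10.9% called lower. Plek (−2.70 ± 0.16), Il1b (−1.91 ± 0.18), Cd80 (−1.51 ± 0.12), Cd86 (−1.50 ± 0.16), Prkcb (−1.14 ± 0.13) and Malt1 (−1.01 ± 0.19) had the most negative values among those named. These calls do not show that the order of the lines turned: within the brain Plek (0.05 ± 0.13), Prkcb (0.10 ± 0.10) and Cd80 (0.12 ± 0.10) were not called, Il1b and Cd86 did not pass the filter, and Malt1 was lower (−0.61 ± 0.16). Of the 13 other targets tested within the brain, 2 were higher in BAL17VII than in BAL17 brains and 11 were not called, with a median difference of 0.12. Beside them stand the B lineage list, with 5 of 12 genes called lower and 1 higher, and the mitosis list, with 3 of 11 lower. The monocyte and macrophage list had 4 of 7 lower. Called higher were 4 of 7 oligodendrocyte, 4 of 7 microglia, 5 of 8 astrocyte and 1 of 9 neuron genes. The endothelium list had 2 of 8 higher and 1 lower, and the T and NK cell list 1 of 4 each way. The brain term of this comparison holds tumour and host cells, and the culture term tumour cells alone, so the sizes of the line differences are not directly comparable. A smaller share of tumour cells in BAL17VII brains, less RNA per tumour cell and other effects of the mixture with host cells cannot be told apart.

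Between day 21 and day 28 of BAL17 brains, limma called none of the 6 genes, against 1.5% of all genes, and 2 of the 6 were at an unadjusted p under 0.05. Birc3 was nevertheless apart, at 7.50 to 8.35 and 7.04 to 7.44, with a difference of −0.52 ± 0.17 (adjusted p = 0.132), as were 1.74% of all genes in that direction. It was called with array weights (−0.56, adjusted p = 0.0242) and with the B lineage mean as a covariate (−0.63 ± 0.12, adjusted p = 0.0109), the B lineage mean being 7.34 and 7.48 on these days. Nfkbia was at −0.28 ± 0.11, Rel at −0.15 ± 0.13, Nfkb2 at −0.07 ± 0.10, Cd40 at −0.01 ± 0.09 and Tnfaip3 at 0.00 ± 0.11. The interval of 2 SE either way ran from −0.18 to 0.16 for Cd40 and from −0.21 to 0.22 for Tnfaip3.

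Both lines were compared with PBS brains as well, where array set and sample type cannot be told apart. All 7 genes tested were higher in either line, against 45.8% of genes called higher for BAL17 and 46.6% for BAL17VII cells. Nfkbie was above the array median on none of the 20 brains, Nfkb2 and Tnfaip3 on none of the 5 PBS arrays and Birc3 on 1, so that these 4 could pass the filter only through groups in which they were higher, and the count is a description. With no filter 8 of the 9 genes were called higher in either line, and Traf1 was not called. Of all 19938 genes, 9437 were then called higher for BAL17 cells (75.2% called in either direction). For BAL17VII cells 9068 were called higher (73.4% in either direction). Birc3 was higher by 2.55 ± 0.14 in BAL17 cells (5.84-fold) and by 3.55 ± 0.14 in BAL17VII cells (11.7-fold). Rel was higher by 2.03 ± 0.11 (4.08-fold) and by 2.69 ± 0.11 (6.47-fold), and Nfkb2 by 1.58 ± 0.09 and by 1.78 ± 0.09. Nfkbia stood lowest among the 7 in BAL17VII cells, at 0.96 ± 0.10, and was at 0.64 ± 0.10 in BAL17 cells.

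Likeness of pattern was described by the Pearson correlation of log2 intensity, which here includes the differences between groups. Over the 20 brains Birc3 was most like Cd274, the PD-L1 gene (r = 0.962), Rel like Ska3 (0.942), Cd40 like Snhg5 (0.95), Nfkb2 like Rin3 (0.931), Nfkbia like Txnip (0.875) and Tnfaip3 like Mcph1 (0.792). Over the 12 line arrays Birc3 was most like Ifi27l2a (0.99), Rel like Cerkl (0.988) and Cd40 like Kdm4a (0.979). Among the NF-kB genes, Birc3 and Rel were each the other's closest, at 0.883 over the brains and 0.948 over the line arrays.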

How the data were processed

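Total RNA was measured on 32 Affymetrix mouse gene arrays. The authors deposited 1 linear intensity per probe set (2.72 to 17825), for which the submitters' processing notes name RMA and the Affymetrix Expression Console; versions, genome build, and whether lines and brains were normalized together are not given in the sources used here. The deposited intensities were taken to log2 with no pseudocount. Of 35556 probe sets, 21789 had 1 gene symbol, 1621 several and 12146 none in the platform annotation; 21698 had an identifier in the RefSeq gene table. Of several probe sets of a gene, that with the highest mean over all arrays was used. No column of other samples was found.

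Group means were fitted in limma 3.58.1 (R 4.3.3) to the 12 line, 20 brain or 32 arrays, two-sided, with Benjamini-Hochberg adjustment over all genes above the array median on a minimum number of arrays, the size of the fit's smallest group (6, 5 and 5). Leaving out an array can lower that number by 1. The number of arrays limits the precision. On simulated data with 200 changed genes, the line fit found 87% of changes of 0.5 and 99% of changes of 1; BAL17 day 21 against PBS found 78% and 98%, and the difference of differences 45% and 95%. Alternatives were scaling, filter, probe set, moderation, array weights, arrays in the fit, replicate block, B lineage covariate, a change of at least 0.5, and leaving out each array. Named pathway genes are among the up to 3 called genes with the smallest adjusted p in each list and comparison; the most alike gene has the highest correlation. The genes and lists were chosen with earlier results of these data known. Tables were handled in Python 3.11.15 with pandas 2.3.3. No protein sequence was used here.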

Additional observations from a re-analysis of the deposited data

Results flagged for a closer look

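In all, 2 values stood apart from their group by Dixon's 95% criterion, out of 54 groups of values examined, where chance gives about 1 in 20. Relb in PBS brain replicate 1 was at 4.95, against 5.37 to 5.54 in the other PBS brains, and Traf1 in BAL17VII cell array replicate 2 was at 5.35, against 5.61 to 5.75 in the other arrays of that line. Both genes lay below the array median on these arrays.

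The difference between the lines differed between brain and culture, by the test of that difference in limma, for 7 genes: Birc3 (−1.79), Cd40 (−1.13), Rel (−1.09), Nfkbie (−0.60, below the array median on all 20 brains), Tnfaip3 (−0.57), Nfkbia (−0.56) and Nfkb2 (−0.36).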

How the results depend on the processing

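Of 1897 differences of single NF-kB genes recomputed under the alternatives, 1802 kept their direction and their side of the threshold, 61 lost the call, 11 gained it, 20 changed sign with no call before or after, and 3 called differences changed sign. These 3 were in BAL17 day 28 against PBS brains with the B lineage mean as a covariate: Nfkb2 −0.10, Birc3 −0.17 and Cd40 −0.024. With that covariate 0 NF-kB genes were called by limma in each implanted group against PBS brains and in BAL17VII against BAL17 brains, and 1 between day 28 and day 21, with 0, 0, 0, 1 and 2 at an unadjusted p under 0.05; 4, 0, 0 and 305 of all genes were called in the first 4 of these. Single calls lost most often were those of Tnfaip3 (9 of 29 alternatives for BAL17 day 21 and 12 of 29 for day 28 against PBS brains). The causes were not tested.

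The filter at percentile 75 left fewer genes to test, and called 1, 0 (1 at an unadjusted p under 0.05 in limma) and 1 of the 1 NF-kB gene still tested in BAL17 day 21, BAL17VII day 21 and BAL17 day 28 against PBS brains, 1 of 1 in BAL17VII against BAL17 brains, 4 of 4 for the difference of differences, and 4 of 4 for each line against PBS brains. Array weights called 1 between day 28 and day 21. With only the arrays compared, 1 was called in BAL17VII against PBS brains and 1 in BAL17VII against BAL17 brains. Asking for a change of at least 0.5 left 1, 3 and 1 in BAL17VII and BAL17 day 28 against PBS brains and BAL17VII against BAL17 brains. Leaving out 1 array gave 6 to 7 for the lines, 5 to 6, 0 to 4 and 4 to 5 for BAL17 day 21, BAL17VII day 21 and BAL17 day 28 against PBS brains, 1 to 4 for BAL17VII against BAL17 brains, 0 to 0 between days in limma (1 to 3 at an unadjusted p under 0.05), 6 to 7 for the difference of differences and 7 to 8 for each line against PBS brains. For BAL17VII against PBS brains 4 were called without BAL17VII replicate 1, 0 without replicate 2 (4 at an unadjusted p under 0.05), and 1 without replicate 3 or without PBS replicate 1.

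Counts over all genes moved by over 1.5 times as follows. BAL17VII against PBS brains had 599 calls, 128 with only the arrays compared, 936 with array weights, 357 at percentile 75, 296 at a change of 0.5 and 244 to 1322 leaving out an array. Day 28 against day 21 had 180, and 308, 620, 338 (quantile normalization), 82 (change of 0.5) and 44 to 270 (an array left out). BAL17VII against BAL17 brains had 2885, 1644 with only the arrays compared and 1762 without BAL17VII replicate 1. At percentile 75 BAL17 day 21 and day 28 against PBS brains had 3286 and 2343, and the lines 6491 and 6502. A change of 0.5 left 792 for the lines, 1808 and 997 for BAL17 day 21 and day 28, 711 for BAL17VII against BAL17 brains and 1916 for the difference of differences.

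Deviations of same-numbered arrays correlated between −0.417 and 0.553 in brains (median 0.009) and between −0.005 and 0.186 in the lines (median 0.077). For arrays of different numbers this was −0.566 to 0.429 in brains (median −0.007) and −0.255 to 0.152 in the lines (median −0.029). The lines gave only 6 same-numbered pairs, too few to tell whether the numbers pair the arrays. With the replicate number as a block, 6, 6, 2, 5, 3, 0, 7, 7 and 7 NF-kB genes were called in the 9 comparisons, the same counts as without it.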
